A study of Mus musculus with 7 samples.

Results

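The mouse mitochondrial genome holds 37 genes in the deposited annotation, and their transcripts were followed in skin. Members were the genes whose symbol starts with mt-, which are 37 of the 56691 genes counted. All 37 lie on the mitochondrial chromosome, chrM, which carries no other gene in the table. They comprise 13 mRNAs, 2 ribosomal RNAs and 22 transfer RNAs. Snap-frozen pieces of skin came from 3 Tuft1 knockout mice (numbers 2, 3 and 4), whose skin looked healthy, and from 4 wild-type mice (numbers 5, 6, 7 and 8), with 1 library per mouse. Tuft1 encodes tuftelin 1, a protein tied to desmosomes, the junctions between keratinocytes. The labels name no treatment and do not give the age, sex, strain or the way the allele was made. Libraries were prepared with QuantSeq, a kit that primes on poly(A) and reads near the 3′ end of a transcript. The comparison asked whether mitochondrially encoded RNA differs in skin without tuftelin 1.

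Mitochondrial DNA is transcribed from both strands into long precursors, and the tRNAs between the longer genes mark where these are cut. The mRNAs encode core subunits of respiratory complexes I, III and IV and of the ATP synthase, which nuclear genes complete, and the rRNAs build the mitochondrial ribosome. Poly(A) tails are added to most of the mRNAs inside the organelle. Nuclear chromosomes also carry old insertions of mitochondrial DNA, some of them almost unchanged in sequence.

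Libraries held 7009237 to 9256459 counts. Tuft1 read 22.1 ± 6.23 CPM (SD, n = 3) in the knockouts against 94.9 ± 26.6 CPM (SD, n = 4) in the wild types, where CPM is the count divided by the TMM-scaled library size. Its log2 fold change was -2.10 (SE 0.39), and edgeR did not call it after adjustment over all genes (adjusted p = 0.1715). Keratinocyte markers were present in each library, with summed levels of 7226 to 11297 CPM for 7 basal genes and 10512 to 21064 CPM for 10 suprabasal genes. The suprabasal sum did not overlap between genotypes, at 10512 to 15289 CPM for the knockouts and 16615 to 21064 CPM for the wild types, with 7 of 10 genes below 0 (median log2 fold change -0.47, 0 called by edgeR). The list did not move as 1 block. Lor was at 3807 to 4505 CPM for the knockouts and 4580 to 7906 CPM for the wild types. Flg, among the 3 genes above 0, was at 128 to 169 CPM and 46.1 to 79.5 CPM, also without overlap. Its log2 fold change was 1.09 (SE 0.28, edgeR adjusted p = 0.519). The part of the suprabasal sum in the values that follow was not tested. The labels do not say more of how the mice were related, so p-values measure the spread between these animals.

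Only part of the mitochondrial mRNA set could be read from the counts. Of the 13 mRNAs, mt-Co2, mt-Co3, mt-Atp8 and mt-Nd4l had 0 counts in all 7 libraries, which allows at most 0.324 to 0.428 CPM by library when 3 counts are taken as the limit of a zero. This limit covers counting error only. mt-Atp6 gave 0, 0 and 33 reads for mice 2, 3 and 4 (knockout), then 0, 1, 3 and 0 for mice 5 to 8 (wild type). mt-Nd3 had 0 counts in 5 libraries, 263 in wild-type mouse 5 and 81 in wild-type mouse 8. The subunits without usable counts are both smaller mitochondrial ones of cytochrome c oxidase, both mitochondrial subunits of the ATP synthase, and 2 small subunits of complex I.

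These 6 genes lie together on chrM between 7013 and 10173 (mm39), and 5 of them have a nearly complete copy on chromosome 1. These copies, with partial copies of mt-Co1 and mt-Nd4 at either end, are 7 pseudogene models on the minus strand. The part of the 7 that matches spans 4654 bases, from 24650616 to 24655269 on chromosome 1 (mm39, as in the table). The matching stretch of chrM, 6390 to 11042, has 4653 bases. Both the order and 5 of the 6 distances between neighbouring copies were the same as on chrM, and the sixth, between mt-Nd3 and mt-Nd4l, differed (74 bases against 73). Transcript sequences of GENCODE M21 (GRCm38), whose mitochondrial lengths matched the table in 37 of 37 genes, were searched for such copies. mt-Co2 matched Gm28661 over 681 of its 684 bases, mt-Atp6 matched Gm10925 over 678 of 681, mt-Co3 matched Gm28437 over 783 of 784, and mt-Nd4l matched Gm10222 over 294 of 297, each with 0 mismatches. mt-Nd3 matched Gm28438 over 345 of 348 bases with 1 mismatch. For mt-Atp8 only the last 43 of its 204 bases, which overlap mt-Atp6, fall in an annotated copy. On chromosome 1 the rest of it corresponds to an interval between gene models, whose sequence was not analysed here.

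The 3′ end of mt-Co3, the gene of the third cytochrome c oxidase subunit, shows how little separates a gene with 0 counts from its copy. The last 60 bases of the gene and the end of the copy follow, with the single base beyond the copy in capitals.
mt-Co3: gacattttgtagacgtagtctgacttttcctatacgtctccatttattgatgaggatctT
Gm28437: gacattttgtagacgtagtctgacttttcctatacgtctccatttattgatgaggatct

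mt-Nd4, the gene of a large membrane subunit of complex I, had the highest count of any gene in every library, and its copy ends early. Gm28439 matches the first 876 of its 1378 bases with 0 mismatches, and the last 502 bases have no counterpart there. The 60 bases around that border are shown with the part of mt-Nd4 beyond the copy in capitals.
mt-Nd4: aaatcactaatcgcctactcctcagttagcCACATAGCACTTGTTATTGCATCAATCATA
Gm28439: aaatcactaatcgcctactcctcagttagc

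Over all 13 mRNAs, the last 300 bases were compared with the copies in windows of 50 bases. In mt-Co2, mt-Co3, mt-Nd3, mt-Atp6 and mt-Nd4l, 98.8% to 100% of these windows occurred letter for letter in a nuclear copy. The share was 0% in mt-Nd1, mt-Nd4, mt-Nd6 and mt-Cytb, 1.99% in mt-Nd5 and 31.9% in mt-Nd2, and each library held at least 13102 counts of every gene in this set of 6. mt-Co1 was an exception, since 100% of its windows occurred in a copy and it still held 9387 to 14752 counts. Gm29216 covers the last 483 bases of mt-Co1 with 1 mismatch, and Gm13340 on chromosome 2 covers all 1545 with 37. mt-Atp8 was the other exception, with 0% of windows in an annotated copy and 0 counts. The position of reads within a gene and the handling of reads that fit several places are not given in the sources used here. The role of the copies in the missing counts was not tested.

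**Figure D1:**
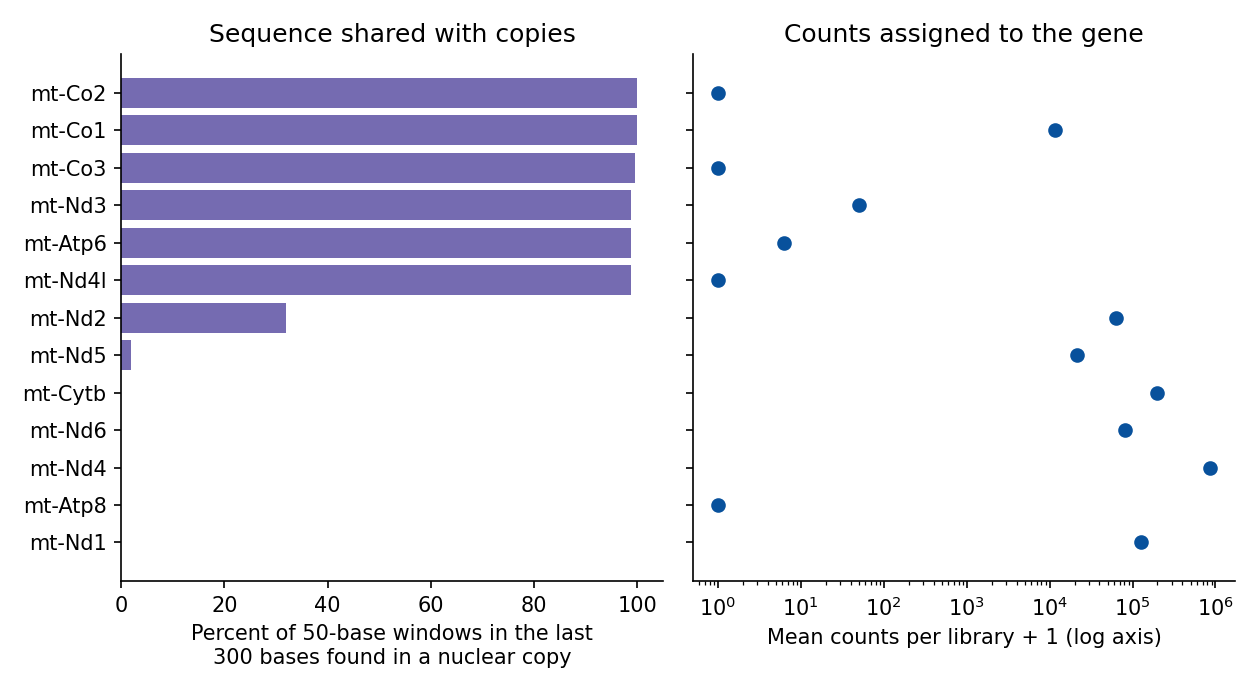
Left, for each of the 13 mitochondrial mRNAs, the percent of 50-base windows in the last 300 bases (the whole gene where shorter) that occur in a nuclear copy. Right, the mean counts per library plus 1 on a log axis; of the 6 genes at 98.8% or more, 5 have almost no counts and mt-Co1 has 11520 on average.

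The 7 mRNAs with counts in every library encode 5 subunits of complex I (mt-Nd1, mt-Nd2, mt-Nd4, mt-Nd5 and mt-Nd6), cytochrome b of complex III (mt-Cytb) and the catalytic subunit of cytochrome c oxidase (mt-Co1). All mitochondrial genes together took 15.7%, 18.3% and 12.4% of the raw counts in knockout mice 2, 3 and 4, and 15.6%, 12.3%, 21.6% and 19.5% in wild-type mice 5, 6, 7 and 8. The means were 15.5% ± 2.95 (SD, n = 3) and 17.3% ± 4.12 (SD, n = 4). Both groups had a low library near 12.4%, knockout mouse 4 and wild-type mouse 6, and the groups overlapped. In bulk skin, fewer cells rich in mitochondria and less mitochondrial RNA per cell cannot be told apart.

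By class, mRNAs took 15.1% ± 2.99 (SD, n = 3) of the counts for the knockouts, against 16.8% ± 4.09 (SD, n = 4) for the wild types. The rRNAs took 0.290%, 0.326% and 0.376% in the knockout mice against 0.430%, 0.363%, 0.431% and 0.418% in wild-type mice 5 to 8. Only knockout mouse 4 reached into the wild-type range, just above wild-type mouse 6. The tRNAs took 0.00584% to 0.0177% of a library. Because the libraries prime on poly(A), the share of rRNA and tRNA among these counts is no measure of their share of cellular RNA.

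**Figure D2:**
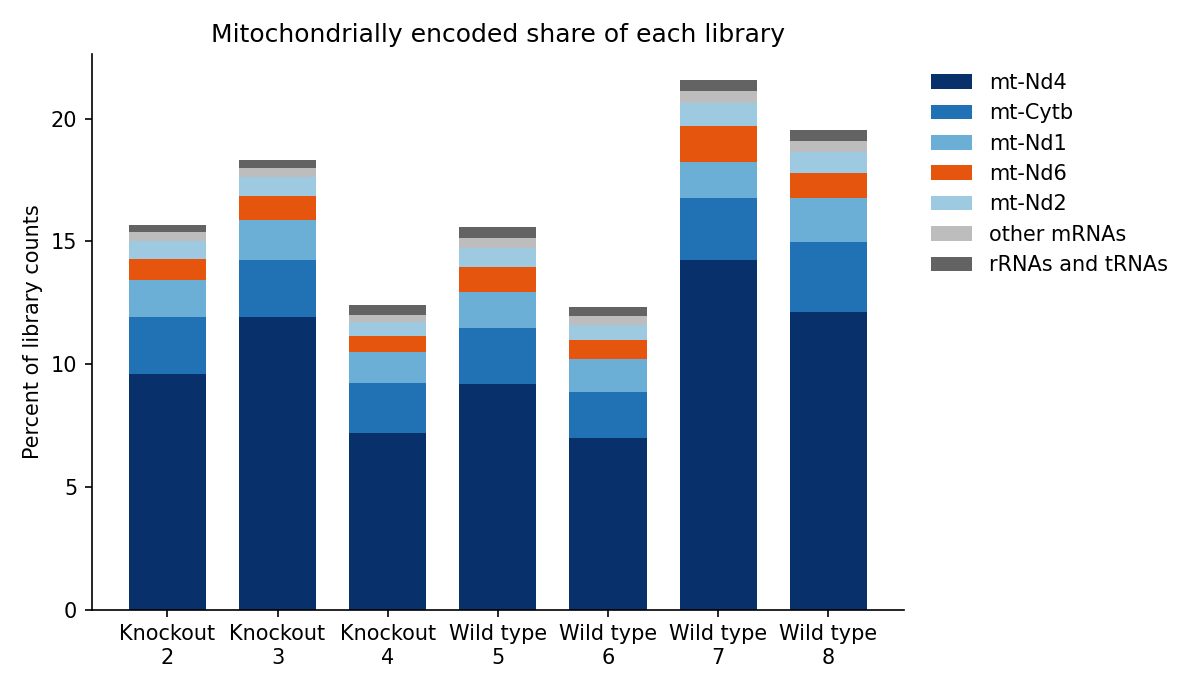
Stacked bars give the percent of each library's raw counts in mitochondrially encoded genes, for 3 knockout and 4 wild-type mice. Knockout mouse 4 (12.4%) and wild-type mouse 6 (12.3%) are lowest, wild-type mouse 7 (21.6%) is highest, and mt-Nd4 is the largest segment of each bar.

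mt-Nd4 alone took 9.61%, 11.9% and 7.19% of the counts in knockout mice 2, 3 and 4, and 9.21%, 7.00%, 14.3% and 12.1% in wild-type mice 5 to 8. It ranked first of all genes in each of the 7 libraries. It made up 61.4% ± 3.58 (SD, n = 3) of mitochondrial counts for the knockouts, against 61.0% ± 4.03 (SD, n = 4) for the wild types. The mRNAs without usable counts are missing from this total, so it is no share of all mitochondrial RNA. Without mt-Nd4, the other mRNAs took 4.83% to 6.06% of the counts in knockout and 4.96% to 6.99% in wild-type skin. The mice with the 3 highest totals (wild-type mice 7 and 8 and knockout mouse 3) were also the 3 with the highest mt-Nd4. As mt-Nd4 is most of that total, the match follows in part from the sum itself.

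mt-Cytb ranked second in every library, with 2.31%, 2.34% and 2.02% of the counts in knockout and 2.25%, 1.86%, 2.52% and 2.86% in wild-type skin. mt-Nd1 held rank 3 or 4, and mt-Nd6 rank 4 to 7. A 3′ tag gives about 1 count per transcript whatever its length, so the order of genes is given both ways. In wild-type skin it ran mt-Nd4, mt-Cytb, mt-Nd1, mt-Nd6, mt-Nd2, mt-Rnr2, mt-Nd5, mt-Co1 and mt-Rnr1 in CPM before TMM scaling. Per kilobase of gene, mt-Nd6 moved ahead of mt-Nd1, with 20369 ± 5348 against 15995 ± 1963 CPM per kilobase (SD, n = 4), and mt-Rnr1 ahead of mt-Co1, with 1074 ± 72.5 against 940.2 ± 72.5. mt-Cytb, at 20739 ± 3716 CPM per kilobase, differed from mt-Nd6 by less than the spread between mice. mt-Nd4 stood apart on the same scale, at 77235 ± 23151 CPM per kilobase. The place of mt-Co1 in either order rests on counts that may be incomplete, because its 3′ end also occurs in nuclear copies.

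In the comparison across all genes, none of the mitochondrial genes was called. The 13 members that passed the filter on low counts were the 7 mRNAs, both rRNAs and 4 tRNAs, and edgeR's quasi-likelihood test called 0 of them, where it called 0.0233% of the 12888 genes tested (0.0155% higher and 0.00776% lower in knockout). DESeq2 and limma-voom also called 0 after adjustment. At an unadjusted p under 0.05, edgeR found 0 of 13 (4.31% of all genes), with mt-Rnr2 lowest at 0.0616. At the same threshold DESeq2 found 1 of 13, mt-Rnr2 at 0.0350 (7.39% of all genes). There limma-voom found 4 of 13 (6.56% of all genes), mt-Rnr2 at 0.00704, mt-Nd5 at 0.0186, mt-Nd6 at 0.0250 and mt-Rnr1 at 0.0482, each lower in knockout, with adjusted p from 0.520 to 0.726. All 7 mRNAs and both rRNAs had log2 fold changes below 0, as had 50.5% of all genes tested, with a median of -0.28 over the mRNAs against -0.01 over all genes. These 9 genes were read in the same 7 libraries, so their signs are not independent.

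Both rRNAs had lower means in the knockouts, and neither passed the test. mt-Rnr1, the small-subunit rRNA (chrM 70 to 1024, plus strand, mm39), measured 854, 729 and 934 CPM for mice 2, 3 and 4 (knockout), then 1121, 985, 1069 and 1017 CPM for mice 5 to 8 (wild type). Each knockout mouse lay below each wild-type mouse on this scale, though not in the share of raw counts, where knockout mouse 4 (0.101%) lay above wild-type mice 7 (0.0993%) and 8 (0.0967%). The fitted log2 difference, knockout over wild type, came to -0.32 (SE 0.18; edgeR, adjusted p = 0.9997).

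mt-Rnr2, the large-subunit rRNA (chrM 1094 to 2675, plus strand), measured 2093, 2592 and 2534 CPM for the knockouts, then 3167, 2533, 3567 and 3376 CPM for the wild types. Wild-type mouse 6 fell inside the knockout range and the other 3 lay above it. The log2 fold change was -0.39 (SE 0.19, edgeR adjusted p = 0.9997).

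Among complex I genes, mt-Nd4 (chrM 10167 to 11544, plus strand) measured 97649, 121290 and 66319 CPM for mice 2, 3 and 4 (knockout), then 91800, 67813, 153380 and 127310 CPM for mice 5 to 8 (wild type). The lowest values of both groups were alike and the 2 highest were wild type. The log2 fold change was -0.21 (SE 0.29), and it came to -0.015 without knockout mouse 4 and -0.0085 without wild-type mouse 7. mt-Nd1 (chrM 2751 to 3707, plus strand), which encodes another membrane subunit, was at 15361, 16586 and 11620 CPM against 14767, 13137, 16026 and 18884 CPM (log2 fold change -0.11, SE 0.20). Without knockout mouse 4 its sign turned (0.019).

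mt-Nd2 (chrM 3914 to 4951, plus strand) measured 7402, 7643 and 5127 CPM for the knockouts, then 7711, 5976, 10167 and 8977 CPM for the wild types (log2 fold change -0.29, SE 0.23). Only wild-type mouse 6 fell within the knockout range. mt-Nd5 (chrM 11742 to 13565, plus strand) measured 2195, 2599 and 1723 CPM for the knockouts, then 2588, 2154, 3674 and 3179 CPM for the wild types (log2 fold change -0.42, SE 0.23). It had the lowest log2 fold change of the 7 mRNAs, and wild-type mice 5 and 6 fell within the knockout range.

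mt-Nd6 is the single mRNA on the minus strand (chrM 13552 to 14070) and overlaps the end of mt-Nd5 by 14 bases. It measured 8816, 9909 and 6151 CPM for the knockouts, then 10001, 7456, 15461 and 10714 CPM for the wild types (log2 fold change -0.40, SE 0.26). Wild-type mouse 6 lay among the knockout mice and the other 3 lay above them. The ratio of mt-Nd6 to mt-Nd5 counts stayed between 3.37 and 4.21 in the 7 libraries. The sources used here do not say whether counting used the strand, so reads from an mt-Nd5 transcript that runs into the region of mt-Nd6 cannot be told apart from those of mt-Nd6 itself.

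mt-Cytb (chrM 14145 to 15288, plus strand) encodes the only complex III subunit of the organelle. It measured 23468, 23865 and 18665 CPM for the knockouts, then 22435, 18010, 27096 and 30096 CPM for the wild types (log2 fold change -0.15, SE 0.21). The 2 highest mice were wild type, and so was the lowest. mt-Co1 (chrM 5328 to 6872, plus strand) measured 1345, 1094 and 1235 CPM for the knockouts, then 1588, 1311, 1479 and 1566 CPM for the wild types (log2 fold change -0.28, SE 0.18). Knockout mouse 2 lay above wild-type mouse 6 on this scale. In the share of raw counts mt-Co1 did not overlap, with 0.107% to 0.134% in knockout and 0.135% to 0.159% in wild-type skin.

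**Figure D3:**
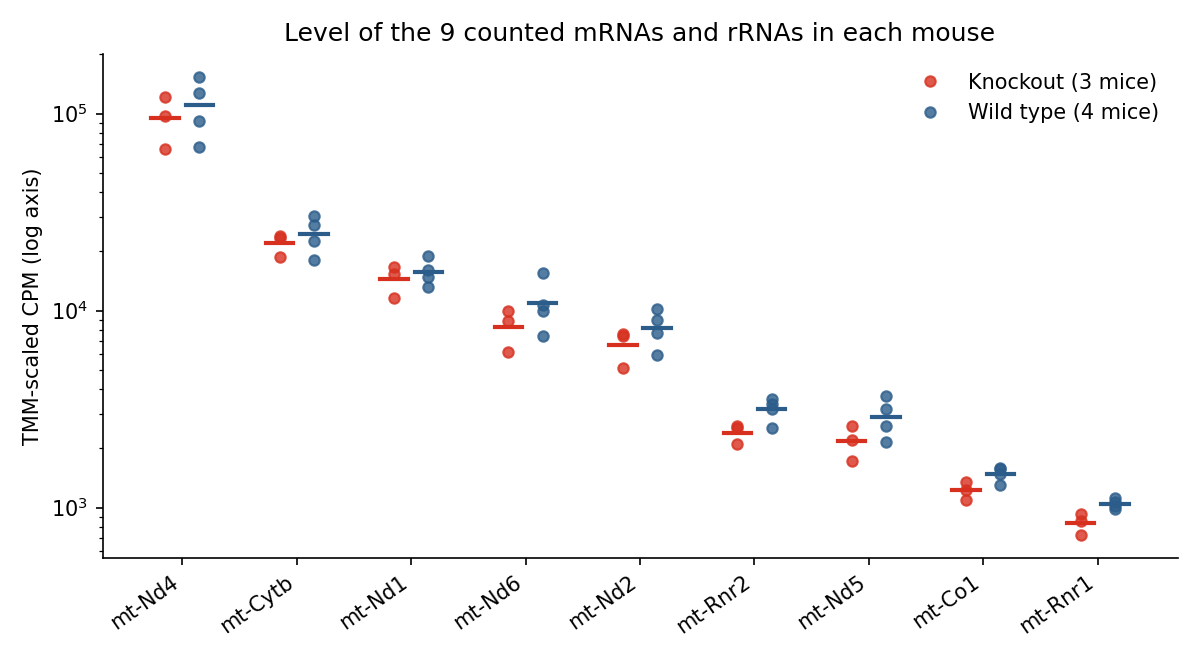
Points are TMM-scaled CPM of the 7 mRNAs and 2 rRNAs with counts in every library, on a log axis, 1 point per mouse, with the group mean as a bar. Groups overlap for each gene except mt-Rnr1, where knockout mice lie between 729 and 934 CPM and wild-type mice between 985 and 1121 CPM.

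Of the 13 members tested, 2 did not overlap between groups in TMM-scaled CPM (mt-Rnr1 lower and mt-Tm higher in knockout), where 6.89% of all genes tested did not (3.44% higher and 3.45% lower). On the share of raw counts the 2 were mt-Co1 and mt-Tm, where the background was 6.84%. mt-Tm thus separated on both scales, and which other gene did so depended on the scaling.

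**Figure D4:**
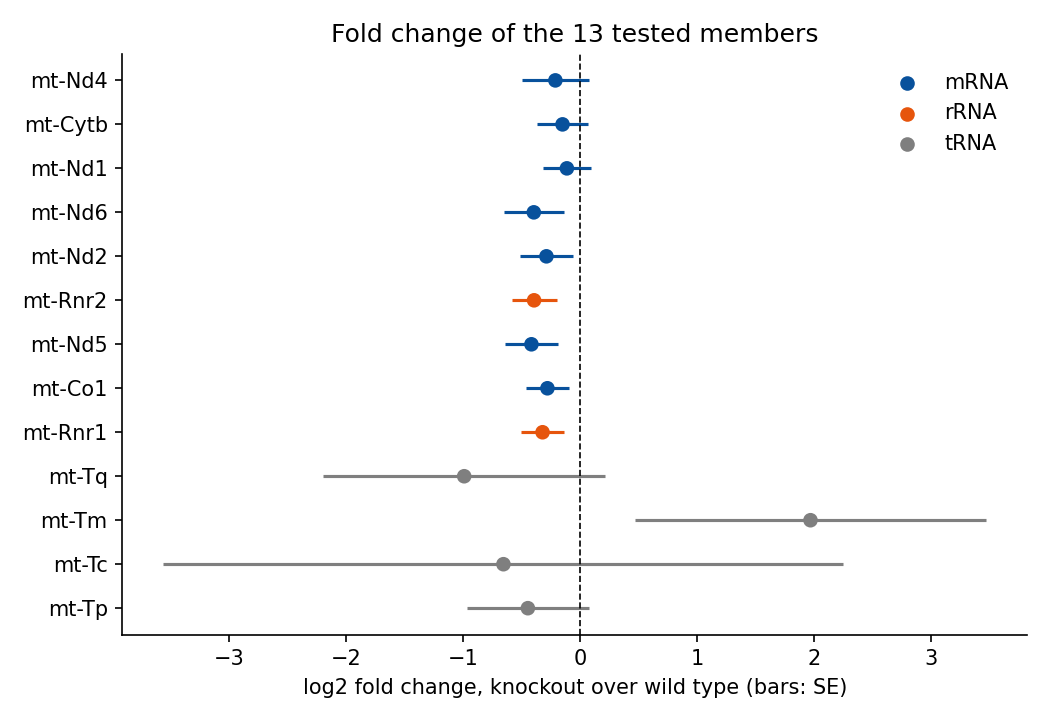
Points are log2 fold changes of knockout over wild type for the 13 tested members, with standard errors as bars, coloured by class. The 9 mRNAs and rRNAs lie between -0.42 and -0.11, and the 4 tRNAs have standard errors of 0.52 to 2.91.

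The tRNA genes held few counts. Of 22, 13 had 0 counts in all libraries and 4 passed the filter. mt-Tp, the proline tRNA on the minus strand (chrM 15356 to 15422), held the most, giving 321, 201 and 1117 reads for mice 2, 3 and 4, then 746, 620, 789 and 1101 for mice 5 to 8. Knockout mice 2 and 3 were lowest and knockout mouse 4 highest, so the groups overlapped (log2 fold change -0.45, SE 0.52). This value rests on single libraries: it was -1.59 (SE 0.43, edgeR unadjusted p = 0.0032, adjusted p = 1) without knockout mouse 4, -0.027 without knockout mouse 3 and -0.18 without knockout mouse 2.

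mt-Tq, the glutamine tRNA, gave 182, 121 and 1 reads for mice 2, 3 and 4, then 362, 70, 62 and 358 reads for mice 5 to 8. Wild-type mice 5 and 8 stood above the other 5 libraries. mt-Tm, the methionine tRNA, gave 59, 207 and 110 reads for the knockouts against 41, 50, 2 and 41 for the wild types, and its log2 fold change, 1.97, had an SE of 1.5 (adjusted p = 0.9997, edgeR). Its lowest knockout value, 59, lay just above the highest wild-type value, 50, and all values are small. mt-Tc, the cysteine tRNA, had 65 counts in knockout mouse 2, 58 and 91 in wild-type mice 6 and 7, and 0 in the other 4 libraries. Of the other tRNAs with any count, mt-Tl1 had 43 in wild-type mouse 6, mt-Tv 27 in wild-type mouse 7, mt-Tl2 14 in knockout mouse 2 and mt-Ti 1 in knockout mouse 3, each in a single library, and mt-Te had at most 3. A tRNA gene adjoins or overlaps its neighbours (mt-Tq overlaps mt-Ti by 3 bases), and the counts do not show whether a read came from the tRNA or from a longer transcript.

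Proportions among the mRNAs were close in the 2 groups. mt-Nd4 made up 62.9% ± 3.24 (SD, n = 3) of mitochondrial mRNA counts for the knockouts, against 62.6% ± 3.84 (SD, n = 4) for the wild types. mt-Cytb made up 14.97% ± 1.90 and 14.33% ± 1.63, and mt-Nd1 9.79% ± 0.710 and 9.40% ± 1.77. The differences were smaller than the spread between mice for each of these. mt-Nd5 made up 1.41%, 1.42% and 1.55% in knockout mice 2, 3 and 4, and 1.71%, 1.86%, 1.62% and 1.58% in wild-type mice 5 to 8. It was the only 1 of the 7 whose shares did not overlap, and knockout mouse 4 and wild-type mouse 8 lay closest. A share among mitochondrial mRNAs has no counterpart over all genes. In the share of raw counts, 6.84% of all genes tested did not overlap. mt-Nd6 made up 5.42% to 5.64% in knockout, and 6.44% to 6.80% in wild-type mice 5, 6 and 7 but 5.34% in wild-type mouse 8.

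Ratios between genes differed in how firmly they held across mice. The ratio of mt-Nd1 to mt-Cytb counts lay between 0.591 and 0.729, so its highest value was 1.23 times its lowest. For mt-Nd4 to mt-Cytb the range was 3.55 to 5.66, or 1.59 times. For mt-Nd4 to mt-Co1 it was 51.7 to 110.9, or 2.14 times. The 3′ end of mt-Co1 also occurs in nuclear copies, and the handling of reads that fit several places is not given. Its counts may therefore be incomplete, and the ratio is one of counts and not of RNA levels. The 3 highest values of the mt-Nd4 to mt-Co1 ratio belonged to knockout mouse 3 and wild-type mice 7 and 8. These were also the 3 libraries with the largest mitochondrial share. As mt-Nd4 makes up most of that share, the 2 measures are not independent.

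The tested mRNAs and rRNAs had smaller coefficients of variation between mice than the median gene. Within the wild-type group the coefficient of variation of TMM-scaled CPM was 5.72% for mt-Rnr1, 8.49% for mt-Co1 and 34.4% for mt-Nd4, with a median of 21.9% over the 7 mRNAs. The median was 52.3% over all 12888 genes tested, and 18.2% over the 53 other genes with at least the mean level of mt-Co1. The mRNA median thus lay below that of all genes and above that of genes of like abundance. Of 13 mitochondrial genes reaching 100 counts in some library only mt-Nd3 had 0 counts in another, against 33.0% of the 12226 genes of the whole table.

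mt-Nd3, which encodes a small subunit of complex I (chrM 9459 to 9806, plus strand), and its chromosome 1 copy changed places between libraries. mt-Nd3 had 0 counts in knockout mice 2, 3 and 4 and in wild-type mice 6 and 7, and Gm28438 had 296, 476, 377, 402 and 520 counts in the same mice. In wild-type mouse 5 it was 263 counts for mt-Nd3 and 2 for Gm28438, and in wild-type mouse 8 it was 81 and 17. The share of the pair on mt-Nd3 was 0% in 5 mice, 99.3% in wild-type mouse 5 and 82.7% in wild-type mouse 8. Counts on mt-Nd3 were seen only in wild-type mice, and the split also ran within the wild-type group. Its relation to genotype was not tested. Over its aligned length the copy differs from mt-Nd3 by T3C, counted from 1 at the first base of the gene, which is chrM 9461. The first 48 bases are shown with that base in capitals.
mt-Nd3: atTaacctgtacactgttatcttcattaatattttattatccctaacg
Gm28438: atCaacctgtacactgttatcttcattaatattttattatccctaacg

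The deposited tables hold counts and no read sequences, so which base the reads of each mouse carried was not analysed here. mt-Nd3 failed the filter on low counts. Where it was fitted all the same, with no filter, edgeR's adjusted p = 0.602 (unadjusted p = 0.0106), and with knockout mouse 2, 3 or 4 left out the adjusted p was 0.8175, 0.9998 and 1. No fold change is given because all knockout libraries were at 0.

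**Figure D5:**
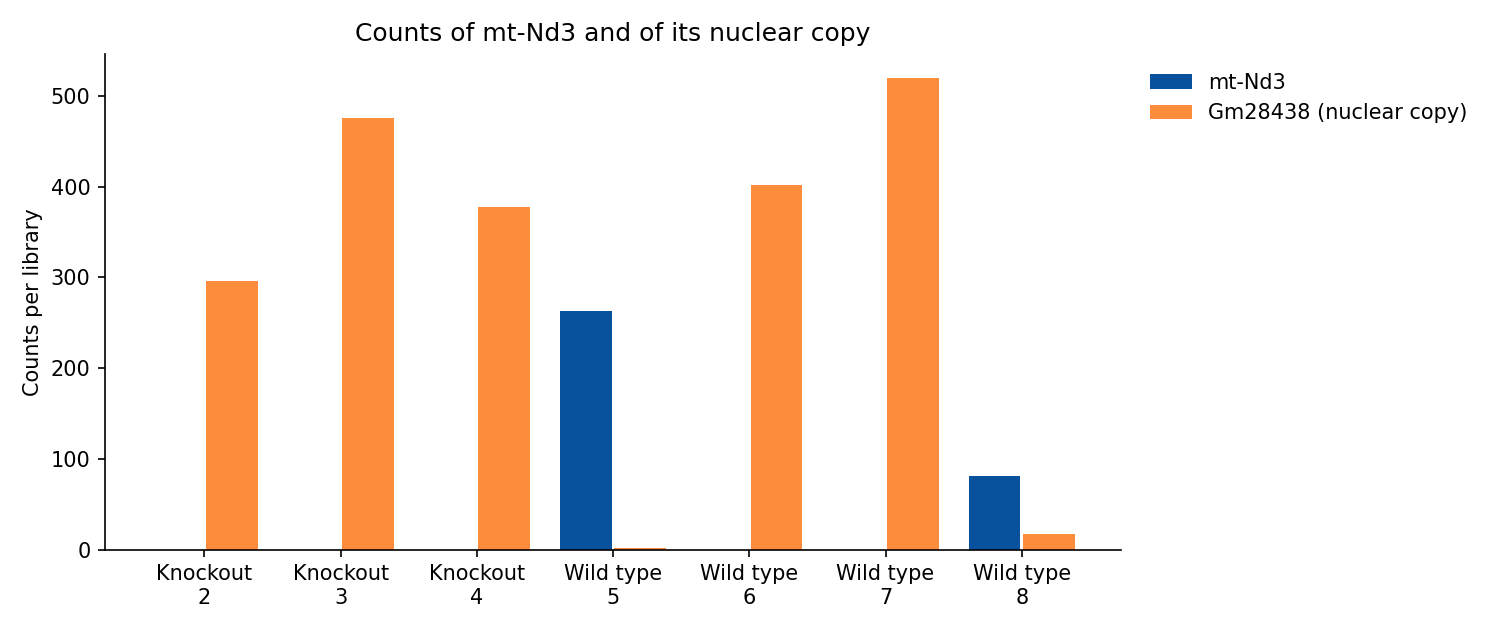
Bars give the counts of mt-Nd3 and of its chromosome 1 copy Gm28438 in each of the 7 libraries. Counts fall on the copy in 5 mice (296 to 520) and mainly on mt-Nd3 in wild-type mice 5 (263) and 8 (81).

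The other chromosome 1 copies behaved in different ways. Gm10925, the copy of mt-Atp6, gave 220, 195 and 288 reads for the knockouts, then 381, 2, 252 and 350 for mice 5 to 8, while mt-Atp6 itself held at most 33. Wild-type mouse 6 alone was almost without counts on this copy. Gm28661, Gm28437, Gm10222 and Gm28439 held at most 8 counts in any library. Gm29216, the copy of the end of mt-Co1, held 4 to 51 counts in 6 libraries and 292 in wild-type mouse 7, and differs from mt-Co1 by A1066T at chrM 6393.

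No nuclear gene listed for the upkeep or expression of mitochondrial DNA was called by edgeR. Over 7 lists of such genes, 0 of 195 tested were called by edgeR, 98 had a log2 fold change above 0 and 97 below, and the median was 0.01 against -0.01 over all genes. At an unadjusted p under 0.05 edgeR found 6 of the 195, where it found 4.31% of all genes tested. Of the list genes limma-voom called 0, and DESeq2 called 1 gene each in the lists of RNA processing and of mitochondrial mass. Over all 12888 genes limma-voom called 22 and DESeq2 called 123. Groups did not overlap for 5.64% of the 195, near the 6.89% of all genes. The 74 tested nuclear genes of the respiratory chain and ATP synthase, partners of the mitochondrially encoded subunits, had 0 calls and a median of -0.02.

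By role, the 17 tested genes of mitochondrial transcription and replication had a median log2 fold change of 0.15, with 10 above 0. Tfam, which packages mitochondrial DNA and starts its transcription, was at a mean of 34.6 ± 2.18 CPM (SD, n = 3) for the knockouts and 21.6 ± 10.9 CPM (SD, n = 4) for the wild types, with overlap (log2 fold change 0.68, SE 0.60). Lonp1, a protease of the matrix, was at 56.5 ± 16.4 and 96.0 ± 12.9 CPM, without overlap (log2 fold change -0.76, SE 0.31, edgeR adjusted p = 0.9997). With limma-voom the median of this list was 0.70. The 34 tested genes of RNA processing and stability had a median of 0.27, with 23 above 0, and 0.54 with limma-voom. Fastkd1, of a family of mitochondrial RNA-binding proteins, had the smallest p of this list, with 4.27, 30.5 and 9.47 CPM for mice 2, 3 and 4 against 0, 0.113, 0 and 0 CPM for mice 5 to 8. Each knockout mouse lay above each wild-type mouse. It was not called by edgeR (adjusted p = 0.741) and was the gene of this list that DESeq2 called (adjusted p = 0.0027). No fold is given, as the wild types are at or near 0. In the other direction, Trmt10c, a part of the enzyme that cuts the precursor at the 5′ end of tRNAs, was at a mean of 4.95 ± 8.47 CPM (SD, n = 3) for the knockouts, with 0, 0.112 and 14.7 CPM by mouse, and 30.6 ± 9.27 CPM (SD, n = 4) for the wild types, without overlap (log2 fold change -2.63, SE 1.48, edgeR adjusted p = 0.9997).

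The 76 tested genes of the mitochondrial ribosome had a median of -0.04, with 36 above 0, and a summed level of 3392 to 3656 CPM for the knockouts and 3152 to 3647 CPM for the wild types. Medians were -0.12 for 17 translation factors, -0.03 for 15 mitochondrial tRNA synthetases (0.17 with limma-voom), 0.05 for 13 regulators of mitochondrial biogenesis and -0.07 for 24 genes of mitochondrial mass. The last list was at 4710 to 5518 CPM for the knockouts and 4719 to 5923 CPM for the wild types. By edgeR none of these lists held a called gene. In the mass list 8 genes had log2 fold changes above 0 and 16 below. Tomm70a was at 58.2 ± 18.2 CPM (SD, n = 3) for the knockouts and 90.8 ± 17.3 CPM (SD, n = 4) for the wild types. The groups overlapped (log2 fold change -0.64, SE 0.32). Tomm22, a receptor of the outer membrane import pore, was at a mean of 184 ± 61.6 CPM (SD, n = 3) for the knockouts and 83.1 ± 16.5 CPM (SD, n = 4) for the wild types, without overlap (log2 fold change 1.15, SE 0.29, edgeR adjusted p = 0.503), and was the gene of the mass list that DESeq2 called (adjusted p = 0.00792).

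Markers of other tissue in the samples are given beside the mitochondrial share. Skeletal muscle, rich in mitochondria, lies under mouse skin, and its 20 markers, all with counts, summed to 25178, 35177 and 35477 CPM for mice 2, 3 and 4 (knockout), then 23613, 22077, 24576 and 31141 CPM for mice 5 to 8 (wild type). All 17 tested members had log2 fold changes above 0 (median 0.33, 0 called). White fat markers, 12 of 12 with counts, summed to 5971, 5027 and 3508 CPM for the knockouts and 11202, 14964, 8763 and 14110 CPM for the wild types, without overlap, with 12 of 12 below 0 (median -1.44, 0 called). For brown fat, 6 of 8 markers had counts, summing to 737 to 861 CPM for the knockouts and 378 to 868 CPM for the wild types, and its defining gene Ucp1 had 0 counts in all libraries. Wild-type mouse 6 had the lowest mitochondrial share of the 7 mice and also the lowest muscle sum, and it had the highest white fat sum. From low to high, the wild types ran 6, 5, 7 and 8 for muscle and 6, 5, 8 and 7 for the mitochondrial share. Wild-type mouse 7, with the highest share, had the lowest white fat sum of its group. Knockout mouse 4 combined the highest muscle sum with the lowest share of its group.

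Of the further marker lists given here, only the immediate early genes did not overlap between groups in summed level. Sums of fibroblast, sebaceous and hair shaft markers, not printed, overlapped too. Immediate early genes, a class induced quickly by stress or tissue handling, summed to 1439, 1375 and 1548 CPM for mice 2, 3 and 4, then 5856, 2958, 4924 and 1646 CPM for mice 5 to 8, without overlap, with 12 of 12 below 0 (median -1.30, 0 called). Nuclear-retained RNAs summed to 2954 to 3536 CPM for the knockouts and 2580 to 3694 CPM for the wild types, with 4 of 4 tested above 0 (median 0.58). Erythrocyte markers summed to 250 to 758 CPM and 456 to 1451 CPM, with 4 of 4 tested below 0, and Alas2 at 0 in all libraries. Smooth muscle markers summed to 527 to 794 CPM and 747 to 1105 CPM, with 6 of 6 below 0, and macrophage markers to 473 to 1181 CPM and 407 to 732 CPM, with 8 of 8 above 0. Endothelial markers summed to 107 to 140 CPM and 118 to 221 CPM, with 6 of 8 below 0. The part of these tissues and RNAs in the mitochondrial values was not tested.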

How the data were processed

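Skin of 3 knockout and 4 wild-type mice was measured with 3′ tag libraries. Integer counts for each gene were deposited. Per the submitters' processing notes, tools included STAR, featureCounts (Subread 2.0.3), GATK 4.2.4.0 and edgeR 3.36.0, on build mm39, with no order given. The authors' other table gives log2 expression for 12954 genes and served only as an alternative gene set. It holds the same number of mitochondrial genes, 13, as the filter used here.

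Counts of all 7 libraries were fitted in edgeR 4.0.16 (R 4.3.3) with TMM scaling, edgeR's expression filter at a minimum count of 10 and the quasi-likelihood F test. Calls used a Benjamini-Hochberg adjusted p below 0.05 over 12888 genes. Standard errors were derived from the F statistic. The fit was tested on simulated data. Shares are percent of raw library counts and carry no test. Alternatives used DESeq2 1.42.0 and limma 3.58.1 (voom), other scalings and filters, and each mouse left out. Mitochondrial sequences of GENCODE M21 were searched against 141730 other transcripts with BLAST 2.17.0 (megablast, e-value 1e-10) after the counts were seen. 24 gene models matched 14 of the 37 genes, and coordinates are from the deposited table.

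The members, lists and tests were chosen with earlier results of these data known. Every mitochondrial gene is accounted for. From nuclear lists the rule took up to 4 called genes or else the 2 with the smallest p, and not all are printed.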

Additional observations from a re-analysis of the deposited data

Results flagged for a closer look

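In 4 of the 62 groups of 4 wild-type values examined, 1 mouse stood far from the other 3 (by Dixon's gap-to-range ratio), where chance flags about 1 in 20, or 3.1 groups. Gm29216, the chromosome 1 copy of the end of mt-Co1, reached 292 counts in wild-type mouse 7, while the other 3 had 4 to 51. The listed near copies of mitochondrial genes summed to 191.1 CPM in wild-type mouse 7 against 49.9 to 68.9 CPM. Nuclear complex I genes summed to 6564 CPM in wild-type mouse 8 against 5084 to 5321 CPM. Endothelial markers summed to 118.1 CPM in wild-type mouse 7 against 204.3 to 220.7 CPM. None of the shares, proportions or ratios of the mitochondrial genes themselves was among these 4.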

How the results depend on the processing

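The number of genes called among all tested was 3, and it was 76 without a filter on low counts, 123 with the DESeq2 Wald test, 22 with limma-voom and 0 to 1 with 1 mouse left out. The count of mitochondrial genes called was 0 under all 14 alternatives. Over these, 125 of 126 log2 fold changes of the 7 mRNAs and 2 rRNAs stayed below 0, and the exception was mt-Nd1, which reached 0.0188 (edgeR adjusted p = 1) without knockout mouse 4 and -0.2196 without knockout mouse 3. All these fits reuse the same mice, so the signs are not independent of each other or of the main fit. The median of the mRNAs ran from -0.39 without wild-type mouse 6 to -0.13 without knockout mouse 4. The difference in mitochondrial share, -1.78 percentage points, ran from -3.42 to -0.256 with 1 mouse left out. In the proportions among mRNAs, mt-Nd5 stayed lower in knockout (-0.281 to -0.178 percentage points). So did mt-Nd6 (-1.09 to -0.597) and mt-Nd2 (-0.402 to -0.122). The difference for mt-Nd4 ran from -1.40 to 1.94, and those for mt-Co1, mt-Cytb and mt-Nd1 also changed sign. In simulated counts, edgeR called 1 of 47 genes set to differ 2-fold and 10 of 46 set to differ 4-fold. These genes were drawn at random from all levels, so the rates do not describe the abundant mitochondrial genes in particular. Smaller differences, of the size seen in these mRNAs and rRNAs, were not simulated. The absence of calls among them therefore does not show equal levels. No paired analysis was possible because the groups share no mouse numbers.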

Other observations

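Gene models outside chromosome 1 that resemble mitochondrial genes also held counts, in uneven patterns. They were chosen after their values were seen. Gm11407 on chromosome 4, which aligns with mt-Nd5 over 1055 bases at 92.4% identity, had 67 counts in wild-type mouse 5, 44 in wild-type mouse 8 and 0 in the other 5 libraries. These are the same 2 mice in which counts fell on mt-Nd3 and not mainly on its copy. Another model did not share this pattern. Gm4076 on chromosome 13, which aligns with mt-Nd5 over 954 bases at 95.2% identity, had 57 counts in knockout mouse 4. It had at most 2 in any other library. Gm13340 on chromosome 2, which aligns with all of mt-Co1, had 157 to 424 counts in each library. Gm13341, beside it and similar to mt-Co2, gave 43, 24 and 198 reads for mice 2, 3 and 4, then 65, 162, 56 and 110 for mice 5 to 8, while mt-Co2 itself had 0. Gm11410 on chromosome 4, similar to mt-Cytb, had 0 counts in knockout mouse 2 and 28 to 87 in the other 6 libraries.

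The coding strand of mt-Nd6 is 22.2% adenine, with no run of adenines longer than 3 and at most 8 in any 20 bases, although the libraries prime on poly(A). In the other 12 mRNAs adenine made up 29.5% to 40.7%. The rRNAs held the densest stretches, with 15 of 20 bases in mt-Rnr1 and 16 of 20 in mt-Rnr2.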
